A study of Mus musculus with 16 samples.

Results

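Neutrophils load their cytosol and granules with antimicrobial proteins, and 7 of the genes that encode them, S100a8, S100a9, Ngp, 1100001G20Rik, Camp, Ltf and Lcn2, were followed in single-cell RNA profiles (Drop-seq) of the mouse hypothalamus and preoptic area, the hypothalamus-POA. The 7 genes were taken by symbol from 28683 genes listed over 16 libraries, and they had been picked because their transcript counts varied widely among cells of the microglia class. Each library came from 1 female mouse aged 8 to 10 weeks at the start, from a colony of mixed CD-1;129P2 background. The groups were wild-type mice given oil (n = 3) or tamoxifen (n = 5), which were littermates without Cre and whose Esr1 alleles are not detailed further, and Esr1 cKO mice, in which the Nkx2-1-Cre transgene acts on floxed Esr1 (Esr1tm1Sakh), given oil (n = 4) or tamoxifen (n = 4). Injections were given on 28 days, with tamoxifen at 0.1 mg/kg or with the vehicle alone, and the mice were killed after the last one. Nkx2-1 drives Cre in ventral forebrain and hypothalamic lineages, so the deletion follows those lineages and not the whole animal.

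S100a8 and S100a9 encode the subunits of calprotectin, a calcium-binding heterodimer that fills much of the neutrophil cytosol and can signal through Tlr4 when released. Camp (the cathelicidin precursor), Ltf (lactoferrin, which binds iron), Lcn2 (lipocalin 2, which binds bacterial siderophores) and Ngp (neutrophilic granule protein) are made while granules form in the bone marrow, and their transcripts decline as the cell matures. 1100001G20Rik, called Wfdc21 in newer annotation, encodes a small protein with a whey acidic protein core. Resting microglia are not known for any of these genes, whereas Lcn2 is also an acute-phase gene of activated endothelium and astrocytes. In a tissue sample, fewer cells of a type and less RNA per cell cannot be told apart from a summed count.

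The 16 libraries held 146538 cell barcodes, of which 55675 passed the study's limits, a gene number above 200 and below 4000 with under 15% mitochondrial transcripts. These are called kept cells, and they numbered 1746 to 5568 per library. Total unique molecular identifiers (UMIs, 1 per captured transcript) ranged from 2634253 to 8038158 per library. A pair of libraries, replicate 3 of the wild-type oil group and replicate 3 of the Esr1 cKO tamoxifen group, stood apart, because all of their deposited barcodes had at least 100 genes while the other 14 reached lower. Counts of barcodes, and the differences of tamoxifen against oil fitted in all kept cells, are also summarised without them. Other fitted differences are not all given that way. Between libraries, 520 of 54478 distinct barcodes of kept cells occurred more than once. Levels are given as CPM, the UMIs of a gene scaled by the total UMIs of the cells summed, without scaling by gene length. Esr1 itself ranged from 16.4 to 90.8 CPM in kept cells of wild-type oil mice, 40.5 to 69.2 under wild-type tamoxifen, 33.2 to 38.2 under Esr1 cKO oil and 10.1 to 60.3 under Esr1 cKO tamoxifen. The ranges of the genotypes overlapped, and since the reads mark the 3′ end of the transcript, outside a deleted internal exon, this does not check the knockout.

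The genes lie in a few short stretches of the genome (mm10, GENCODE vM21). S100a8 occupies chr3:90668978-90670035 on the plus strand, and S100a9 occupies chr3:90692632-90695721 on the minus strand, 22.6 kb further on. Camp (chr9:109847379-109849617, minus), Ngp (chr9:110419747-110423012, plus) and Ltf (chr9:111019271-111042767, plus) share 1195 kb of chromosome 9. Lcn2 occupies chr2:32384633-32388252 on the minus strand and 1100001G20Rik, as Wfdc21, chr11:83746940-83752642 on the plus strand. Granulocyte genes are known targets of the C/EBP factors, so the 250 bases before each RefSeq start were searched on both strands for TTNNGNAA, a loose C/EBP pattern. It occurred before 5 of the 6 genes with a RefSeq entry, and in 36.85% of all 32851 promoters. GAGGAAG, a core bound by PU.1, occurred before S100a8 and Lcn2 (2 of 6, against 10.61% of all promoters), and an NF-kB pattern of 10 letters before Ltf and Lcn2 (2 of 6, against 45.8%). Matches of different patterns overlapped 0 times. The windows are shown for the 5 genes that have bases there outside the gene in both annotations, so that the search can be followed, with the C/EBP pattern in capitals, 5′ to 3′ along the gene's strand and trimmed to those bases (RefSeq, GRCm38.p6).
S100a8, chr3:90668821-90668977, plus: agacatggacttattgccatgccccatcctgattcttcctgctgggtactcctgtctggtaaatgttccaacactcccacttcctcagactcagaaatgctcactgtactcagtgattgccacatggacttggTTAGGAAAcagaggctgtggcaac
S100a9, chr3:90695722-90695971, minus: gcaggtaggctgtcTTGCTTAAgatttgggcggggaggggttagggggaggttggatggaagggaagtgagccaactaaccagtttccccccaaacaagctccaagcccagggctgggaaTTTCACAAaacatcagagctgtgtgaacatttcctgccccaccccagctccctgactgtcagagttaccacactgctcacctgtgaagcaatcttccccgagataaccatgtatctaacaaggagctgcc
Ngp, chr9:110419558-110419746, plus: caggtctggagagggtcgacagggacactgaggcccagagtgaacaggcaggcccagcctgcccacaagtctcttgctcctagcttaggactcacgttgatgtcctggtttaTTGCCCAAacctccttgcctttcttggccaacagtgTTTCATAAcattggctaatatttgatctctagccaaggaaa
Ltf, chr9:111019042-111019270, plus: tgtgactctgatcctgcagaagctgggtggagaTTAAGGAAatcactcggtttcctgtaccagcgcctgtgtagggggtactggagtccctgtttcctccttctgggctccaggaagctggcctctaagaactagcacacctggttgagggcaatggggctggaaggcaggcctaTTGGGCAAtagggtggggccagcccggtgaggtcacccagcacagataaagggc
Camp, chr9:109849618-109849706, minus: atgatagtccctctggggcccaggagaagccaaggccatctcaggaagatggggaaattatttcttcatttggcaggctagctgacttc
A match describes letters in a window and no binding was measured.

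The values that chose the genes were their spread over the 5426 cells of the microglia class, and they are given as a description. Ranked by variance over mean among 21577 genes found there, S100a8 was the 2nd with a ratio of 153.2, and its 1383 UMIs lay in 19 cells with up to 275 in 1 cell. S100a9 was the 3rd with 98.5, and its 910 UMIs also lay in 19 cells. Camp ranked 8, Ngp 11, Ltf 23, Lcn2 35 and 1100001G20Rik 43. Each of the 7 was thus found in between 8 and 19 of the 5426 cells.

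Over all deposited barcodes the 7 genes gave 4743 UMIs in 560 barcodes, 0.382% of the total. Calprotectin transcripts split these barcodes sharply. Of the barcodes with any S100a8 or S100a9 UMI, 149 had 1, 6 had 2, 4 had 3 and 2 had 4, whereas 5 had 5 to 9, 6 had 10 to 19, 10 had 20 to 49, 11 had 50 to 99 and 7 had 100 or more. Barcodes with at least 5 calprotectin UMIs, a limit set after these counts were seen, are called calprotectin barcodes. There were 39 of them in 12 libraries, and the 7 genes made up 22.67% of their transcripts and up to 39.35% in a single barcode.

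These 39 barcodes held most of what was measured of the set. They contained 95.3% of 1907 S100a8 UMIs, 93.4% of 1392 S100a9 UMIs, 93.8% of 275 Camp UMIs, 88.7% of 247 Ngp UMIs and 85.8% of 120 1100001G20Rik UMIs. Ltf and Lcn2 were different, with 40.7% of 246 and 15.8% of 556 UMIs in the 39 barcodes, and where the remainder lay is described further on. Together, 3886 of 4743 UMIs (81.9%) came from them.

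**Figure D1:**
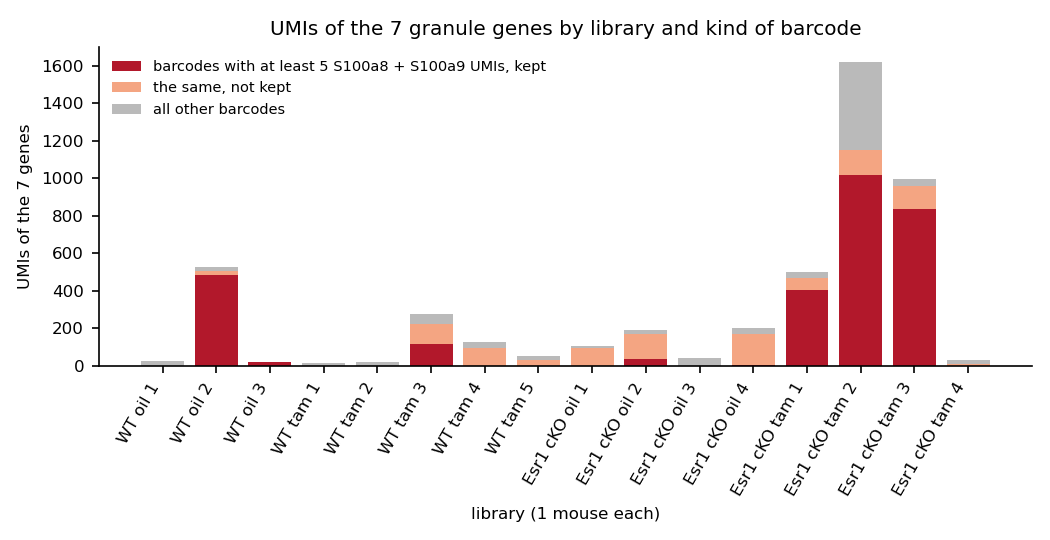
Stacked bars give the UMIs of the 7 genes together in each library (1 mouse each), split into kept calprotectin barcodes, calprotectin barcodes that were not kept, and all other barcodes. Esr1 cKO tamoxifen replicate 2 reaches 1620 UMIs and replicate 3 reaches 997, replicate 4 holds 32, and wild-type oil replicate 2 holds 528.

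The calprotectin barcodes were poor in RNA. Their median was 322 UMIs (range 49 to 1284) and 208 genes, and 24 of the 39 were not kept cells. Of these 24, 19 had too few genes, 7 too high a mitochondrial share, and 2 both. The 15 that were kept had a median of 537 UMIs and 331 genes. Clustering without the 7 genes put 14 of the 15 into the microglia class and 1 into the endothelial class. At a finer resolution of 0.5 all 14 fell into cluster 14, a group of 860 cells, and 0 into the 4578 cells of the main microglial cluster. In the other 846 cells of cluster 14, 8 perivascular macrophage genes gave 0.772% of transcripts outside the 7 genes. Over the 5412 other cells of the microglia class they gave 0.119%. None of the 39 barcodes occurred in another library, and any pair of them within a library differed in at least 5 letters.

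**Figure D2:**
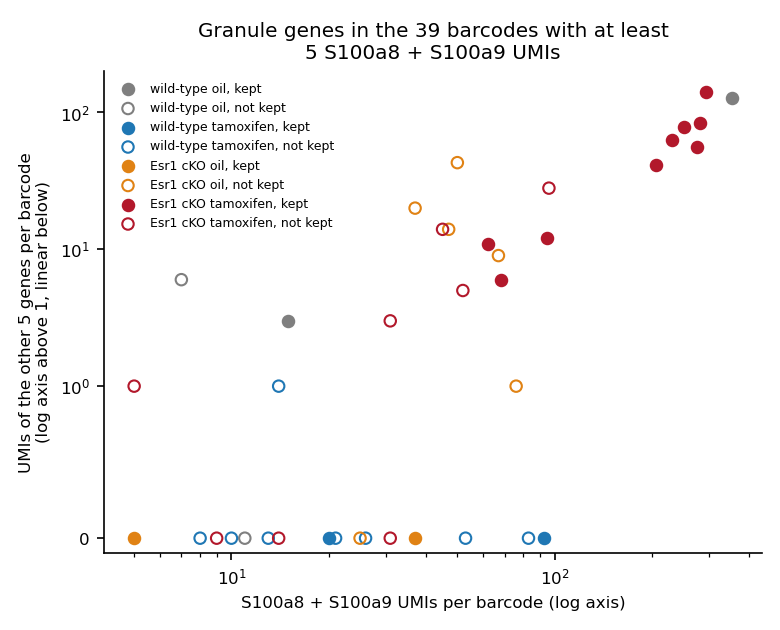
Each point is 1 of the 39 calprotectin barcodes, with its S100a8 plus S100a9 UMIs on the horizontal axis (log scale) and its UMIs of Ngp, 1100001G20Rik, Camp, Ltf and Lcn2 on the vertical axis (logarithmic above 1, linear below), coloured by group and filled where kept. Barcodes of wild-type tamoxifen mice lie at 0 on the vertical axis except for 1 barcode with 1 UMI. The other groups reach far above, with some barcodes also at 0.

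The barcodes that carried the granule genes carried almost none of the genes of microglia. Of 20 microglial identity genes, 4 were found in the 39 barcodes, with 41 UMIs or 0.309% of transcripts outside the 7 genes, against 3.015% in the other 5412 cells of the microglia class. In the other 846 cells of cluster 14 the share was 1.312%. Tyrobp, an adaptor that neutrophils share, gave 35 of the 41 UMIs, and Selplg, which neutrophils also carry, gave 4. P2ry12 and Siglech gave 1 each, while the complement genes C1qa, C1qb and C1qc, and Cx3cr1, Csf1r, Ctss, Trem2 and Tmem119 gave 0. In the other cells of the class Ctss alone gave 20163 UMIs and C1qb 14635. A UMI of any of the 10 microglia markers was found in 2 of 39 calprotectin barcodes, in 0 of the 15 kept ones, and in 5141 of 5412 other cells of the class.

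The reverse held for genes of neutrophils. Of 26 neutrophil genes outside the set that the files list, 24 were found in the 39 barcodes, with 733 UMIs or 5.531% of transcripts outside the 7 genes, against 0.0469% in the other cells of the microglia class. In the other 846 cells of cluster 14 the share was 0.155%. Retnlg, a resistin-like gene of neutrophils, led with 327 UMIs in 31 barcodes and 10 libraries, against 4 UMIs in 5412 cells. Anxa1 (annexin A1) gave 78 UMIs, Ifitm6 57, the chemokine receptor gene Cxcr2 33 in 21 barcodes, Hp (haptoglobin) 31, and the collagenase gene Mmp8 26. The granulocyte colony-stimulating factor receptor gene Csf3r gave 18. Ly6g and Olfm4 were at 0. Without the 2 libraries that stood apart, 34 barcodes in 10 libraries held 550 UMIs of these neutrophil genes and 29 of the microglial identity genes. These values describe 39 barcodes chosen by S100a8 and S100a9, and no test was run because only 2 libraries held 3 or more kept barcodes rich in the set.

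Genes of other blood and border cells gave few UMIs in the same barcodes. The azurophil granule genes of promyelocytes (Mpo, Elane, Prtn3, Ctsg, Ms4a3) were at 0 UMIs, as were all 8 perivascular macrophage genes and all 4 platelet genes. Of the 7 monocyte genes, the 6 that matched by symbol gave 10 UMIs, from Ly6c2 and Plac8. The remaining one, Chil3, a chitinase-like gene also in the neutrophil list, is present under its older symbol Chi3l3 and gave 26 UMIs in 8 of the 39 barcodes, which neither list counts. The red blood cell list gave 9 UMIs, T and NK cell genes 2 and B cell genes 1. As shares of transcripts outside the 7 genes, the 6 monocyte genes gave 0.0755%, against 0.0111% in the other cells of the microglia class. T and NK cell genes gave 0.0151 against 0.00644%, B cell genes 0.00755 against 0.0219% and red blood cell genes 0.0679 against 0.0875%. Among granulocyte transcription factors, Spi1, which encodes PU.1, gave 18 UMIs and Cebpb 5. Of the 9 receptor genes for the encoded proteins, the formyl peptide receptor genes Fpr2 and Fpr1 gave 13 and 5 UMIs, and Tlr4 and Lrp1 gave 1 each.

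**Figure D3:**
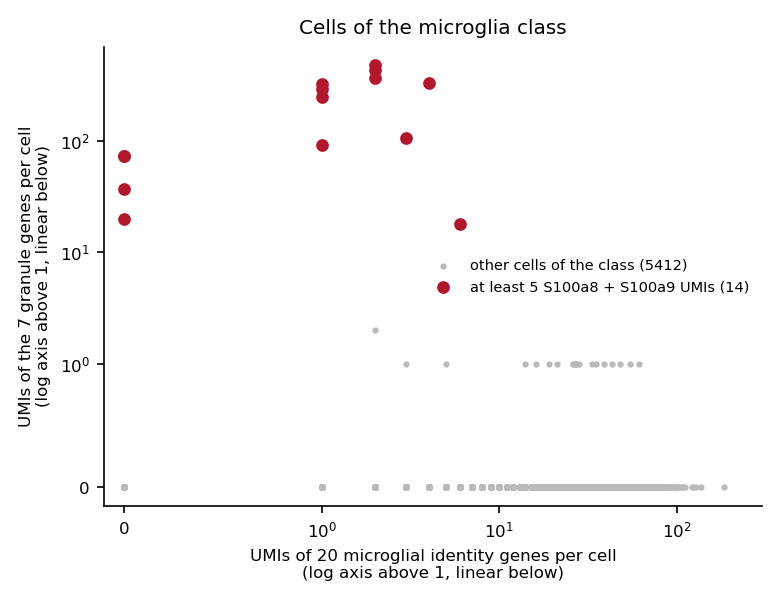
Each point is a cell of the microglia class, with its UMIs of 20 microglial identity genes on the horizontal axis and of the 7 granule genes on the vertical axis (both logarithmic above 1, linear below). The 14 calprotectin barcodes, in red, lie high on the left, and the 5412 other cells, in grey, hold 21 UMIs of the 7 genes in all.

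Outside the calprotectin barcodes, cells of the microglia class hardly carried the set. The 5412 cells held 6 UMIs of S100a8 in 5 cells (0.0924%, exact 95% interval 0.0300 to 0.216%, median depth 613 UMIs). In neurons, which should lack the gene, the share was 0.0547% (0.0178 to 0.128%) at a median depth of 1489 UMIs. S100a9 was found in 5 of the 5412 cells (0.0924%) and in 0.110% of neurons. The intervals of the shares overlapped for both genes, at unlike depths. Scaled by UMIs, S100a8 measured 1.51 CPM in these microglia-class cells, 0.269 in neurons, 0.877 in astrocytes and 1.46 in endothelial cells. S100a9 measured 1.26, 0.538, 1.25 and 2.43 in the same order. Whether the microglia class lay above background was not tested.

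The barcodes richest in calprotectin show how the set was composed. In wild-type oil replicate 2, the richest held 275 UMIs of S100a8, 79 of S100a9, 55 of Camp, 29 of Ngp, 24 of Ltf, 10 of 1100001G20Rik and 9 of Lcn2, out of 1284. In Esr1 cKO tamoxifen replicate 3, the richest held 162, 132, 50, 46, 12, 15 and 19 of the same genes in that order, out of 1261. The richest of the wild-type tamoxifen mice, in replicate 3, held 84 UMIs of S100a8 and 9 of S100a9 out of 518, none of the other 5 genes, and 31 UMIs of Retnlg. The richest wild-type oil and Esr1 cKO tamoxifen barcodes held all 7 genes together, whereas the richest wild-type tamoxifen barcode held calprotectin alone. The richest Esr1 cKO oil barcode, in replicate 4 and not kept, was close to the latter. It held 38 UMIs of S100a8, 38 of S100a9, 1 of 1100001G20Rik and 0 of Ngp, Camp, Ltf and Lcn2, out of 430.

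The 39 barcodes differed in whether other genes of the set were found beside calprotectin. In 23 of them at least 1 of Ngp, 1100001G20Rik, Camp, Ltf and Lcn2 was found beside calprotectin, and in 16 none was. The 23 had a median of 389 UMIs and 67 calprotectin UMIs, and the 16 had 234 and 20.5, so depth moved with this split. A single UMI decides the side. The Esr1 cKO oil barcode with 76 calprotectin UMIs and 1 UMI of the other genes is among the 23. The 16 include an endothelial-class barcode with 5 calprotectin UMIs. Whether the barcodes form separate kinds was not tested. Il1b, which encodes the cytokine interleukin 1 beta, was found in 5 of the 23 and in 14 of the 16. Mmp8 gave 26 UMIs in the 23 and 0 in the 16, Ifitm6 55 and 2, and Retnlg 255 and 72. Cxcr2, which marks mature neutrophils, was found in 12 of the 23 and 9 of the 16. Leaving out the 2 libraries that stood apart, 18 of 34 barcodes held 1 or more of the other 5 genes.

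Relative to calprotectin, the other 5 genes were spread unevenly over the groups. For every 100 calprotectin UMIs in calprotectin barcodes, the other 5 genes gave 35.1 UMIs in wild-type oil mice, 25.3 in Esr1 cKO oil mice and 26.6 in Esr1 cKO tamoxifen mice, but 0.293 in wild-type tamoxifen mice, where 1 UMI stood beside 341. By library the ratio was 35.8 and 20 in the wild-type oil libraries that had any, 0, 0 and 3.70 under wild-type tamoxifen, 86, 20.6 and 9.80 under Esr1 cKO oil, and 17.5, 24.8, 34.3 and 0 under Esr1 cKO tamoxifen. The wild-type tamoxifen values lay below those of both oil groups, but a library of the Esr1 cKO tamoxifen group with 9 calprotectin UMIs was also at 0. Few barcodes stood behind these values. In wild-type oil mice 1 barcode gave 127 of the 136 UMIs of the other 5 genes, and the ratios of 20 and 86 came from 1 barcode each. Esr1 cKO oil barcodes with 37 and with 25 calprotectin UMIs held 0 UMIs of the other 5 genes. Without the 2 libraries that stood apart, the wild-type oil value rests on 1 library at 35.8 and the Esr1 cKO tamoxifen values are 17.5, 24.8 and 0. At 50 to 100 calprotectin UMIs per barcode, 3 barcodes of wild-type tamoxifen mice had 0 UMIs of the other 5 genes and 2 to 4 of Il1b, while 8 barcodes of the other groups had 1 to 43 and 0 to 2. All 10 barcodes of wild-type tamoxifen mice held Il1b. The difference was seen in the data and then described, and was not tested.

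Calprotectin barcodes were found in 2 of 3 wild-type oil libraries, 3 of 5 wild-type tamoxifen libraries, 3 of 4 Esr1 cKO oil libraries and 4 of 4 Esr1 cKO tamoxifen libraries. Among all deposited barcodes they numbered 4 in wild-type oil mice, 10 under wild-type tamoxifen, 8 under Esr1 cKO oil and 17 under Esr1 cKO tamoxifen. The groups differ in mice and in barcodes. Mean shares per library were 0.0145, 0.0175, 0.0210 and 0.0647% in that order (SD 0.0156, 0.0173, 0.0191 and 0.0575). Among kept cells the numbers were 2, 2, 2 and 9, with mean shares of 0.0206, 0.00718, 0.0168 and 0.0893%. The Esr1 cKO tamoxifen mice thus held 9 of 15 after filtering and 17 of 39 before it, 8 of which came from replicate 2. Without the 2 libraries that stood apart, wild-type oil mice held 3 (1 of them kept) and Esr1 cKO tamoxifen mice 13 (6 kept). That library had 4 among 1888 kept cells (0.212%, exact 95% interval 0.0578 to 0.542%). A count of 0, taken as up to 3 counts over the kept cells, allowed a share of up to 0.172% in wild-type oil replicate 1, which had the fewest kept cells, and up to 0.0713% in Esr1 cKO oil replicate 3. Intervals and limits cover counting error only. Another kind, granule-rich barcodes with at least 5 UMIs over at least 3 of the 7 genes, had a mean share of kept cells of 0.0206% ± 0.0178 (SD, n = 3) in wild-type oil, 0.103% ± 0.114 (n = 4) in Esr1 cKO tamoxifen mice, and 0 of all kept cells in the other groups. Without the libraries that stood apart, the shares were 0 and 0.0307% in the wild-type oil libraries and 0.0726, 0.265 and 0% in Esr1 cKO tamoxifen libraries.

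Summed over kept cells, S100a8 measured 1.16, 70.7 and 1.58 CPM in wild-type oil replicates 1 to 3. Under wild-type tamoxifen it measured 0, 0, 17.6, 0.194 and 0.249. In Esr1 cKO mice it measured 0, 8.15, 0.194 and 0.778 under oil and 69.8, 272.9, 60.4 and 0 under tamoxifen. Of the 16 values, 3 of the 4 Esr1 cKO tamoxifen libraries and wild-type oil replicate 2 were high, and every pair of groups overlapped. In wild-type oil replicate 2, 1 barcode held 275 of the 278 S100a8 UMIs in kept cells. In Esr1 cKO oil replicate 2, 1 barcode held 23 of 25. With calprotectin barcodes left out, the highest S100a8 value was 11.9, in Esr1 cKO tamoxifen replicate 2, and no library of the other groups was above 1.16.

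S100a9 followed the same libraries. It measured 0.582, 20.6 and 2.64 CPM in wild-type oil mice and 0.597, 1.28, 4.58, 0.388 and 0.249 under wild-type tamoxifen. Under Esr1 cKO oil the values were 0, 4.89, 0.582 and 1.30, and under Esr1 cKO tamoxifen 54.3, 203.0, 55.5 and 0.532. Across libraries the log2 levels of S100a8 and S100a9 had a Pearson r of 0.953 (n = 16), as a description, since both were counted mostly in the same barcodes and share each library's depth.

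Camp, Ngp and 1100001G20Rik gave smaller counts in the same libraries. Camp measured 0.582, 13.99 and 0 CPM in wild-type oil mice, 0 to 0.321 under wild-type tamoxifen, 0 to 0.652 under Esr1 cKO oil, and 3.98, 40.0, 12.1 and 0 under Esr1 cKO tamoxifen. Ngp measured 0.582, 7.89 and 0 in wild-type oil mice, 0 to 1.28 under wild-type tamoxifen, 0 to 0.519 under Esr1 cKO oil and 11.9, 33.3, 13.6 and 0 under Esr1 cKO tamoxifen. For 1100001G20Rik the values were 0.582, 3.05 and 0.791, then 0 to 0.388, 0 to 0.652, and 3.62, 15.2, 6.43 and 0.266. Esr1 cKO tamoxifen replicate 4 thus lay within the ranges of the wild-type tamoxifen and Esr1 cKO oil libraries for all 3 genes.

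Ltf was found more evenly. It measured 3.49, 7.12 and 0 CPM in wild-type oil mice, 0.298 to 2.52 under wild-type tamoxifen, 0.778 to 1.75 under Esr1 cKO oil, and 4.70, 23.1, 3.31 and 2.39 under Esr1 cKO tamoxifen. The lowest Esr1 cKO tamoxifen value (2.39, replicate 4) and the highest Esr1 cKO oil value (1.75, replicate 3) rested on 9 UMIs each. Lcn2 measured 0.582, 2.80 and 0 in wild-type oil mice, 0 to 4.398 under wild-type tamoxifen, 0.978 to 1.56 under Esr1 cKO oil, and 5.79, 142.7, 6.06 and 0.266 under Esr1 cKO tamoxifen.

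Group differences were tested by edgeR's quasi-likelihood test over all genes, with UMIs summed per mouse and Benjamini-Hochberg adjustment. In kept cells of all classes, 16626 genes were tested and 0 were called in any of 5 comparisons, a share of 0%, so that 0 of the 7 genes passed. The kept cells include those over which the 7 were picked, so counts of the 7 at an unadjusted p are a description and support nothing. Without the calprotectin barcodes, 0 of the 7 could be tested. At an unadjusted p under 0.05, 7 of 7 genes were higher under tamoxifen than oil in Esr1 cKO mice, beside 540 of 16626 genes. For the tamoxifen difference of wild-type mice 3 of 7 were under that p (311 genes), for the interaction 6 of 7 (708 genes), for genotype under oil 2 of 7 (965 genes) and for genotype under tamoxifen 7 of 7 (451 genes). DESeq2 called 0 of the 7 genes in all 5 comparisons, and 1 gene of all each in the interaction and in the comparison of genotypes under oil.

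The fitted differences were large with wide errors, and they cover kept cells only. Each SE was back-calculated, as the size of the difference over the square root of the test's F statistic. Over all deposited barcodes S100a8 gave 29, 83, 2 and 79 UMIs in the Esr1 cKO oil libraries, of which 0, 25, 1 and 3 were kept. In the Esr1 cKO tamoxifen libraries it gave 232, 589, 383 and 5, of which 193, 484, 329 and 0 were kept. The part of these UMIs that passed the cell filter thus differed between the 2 groups. In Esr1 cKO mice, tamoxifen minus oil on the log2 scale was 5.54 ± 1.73 (SE) for S100a8 and 5.55 ± 1.26 for S100a9. It was 5.94 ± 1.43 for Ngp, 5.47 ± 1.47 for Camp, 4.34 ± 1.02 for 1100001G20Rik, 4.80 ± 1.35 for Lcn2 and 2.51 ± 0.864 for Ltf, with edgeR's adjusted p of 1 for each. The median over the 7 was 5.47, and over all genes it was -0.01. With the 2 libraries that stood apart left out, the 7 values ran from 2.70 for Ltf to 5.84 for Ngp, with a median of 5.39. In wild-type mice the same difference ran the other way for 6 of 7 genes, with a median of -2.64, and was 0.18 ± 1.70 for Lcn2. Without the libraries that stood apart that median was -3.18. Without wild-type oil replicate 2 the median was 0.40, and the value changed direction for S100a8 (1.43), Ngp (0.76) and Ltf (0.40). For S100a9 (-0.34), Camp (-0.35) and 1100001G20Rik (-1.77) it kept its direction at a smaller size. The interaction of tamoxifen with genotype had a median of 8.02 over the 7 genes, with an adjusted p of 0.958 for each of them by edgeR, and the comparisons share groups of mice. Without wild-type oil replicate 2 the interaction went from 10.34 to 5.82 for Camp, from 8.96 to 5.19 for Ngp and from 8.02 to 5.88 for S100a9. It went from 7.22 to 6.12 for 1100001G20Rik and from 3.51 to 2.11 for Ltf. For Lcn2, tamoxifen minus oil in Esr1 cKO mice was 1.68 without Esr1 cKO tamoxifen replicate 2.

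**Figure D4:**
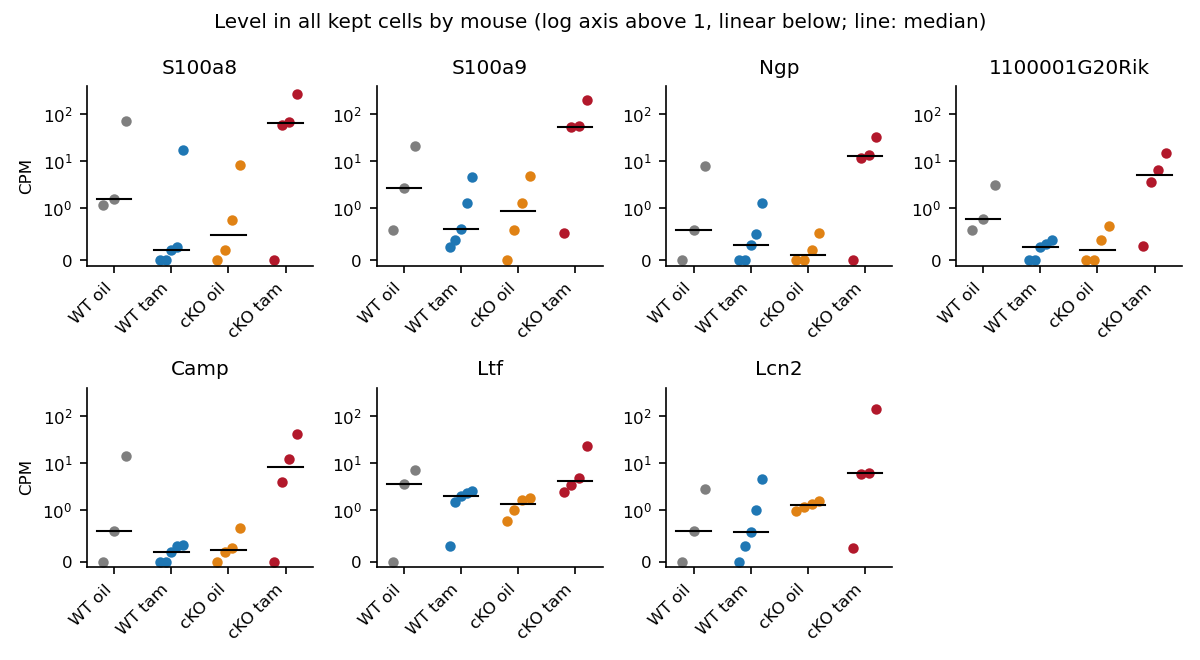
Each panel plots 1 of the 7 genes, with a point for the level in kept cells of each mouse (CPM, on an axis that is logarithmic above 1 and linear below) and a line for the median of the group. The Esr1 cKO tamoxifen group spans from a mouse that lies among libraries of the other groups up to replicate 2, at 272.9 for S100a8.

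Within the microglia class 5933 genes were tested, with all 7 of the set among them. The 7 had been picked for their spread over these same cells, and they passed the filter on low counts through the libraries where they were high (5 of 7 did so without Esr1 cKO tamoxifen replicate 1, 2 or 3), so their counts in this class are a description and support nothing. The same test called 0 of 7 and 0 of 5933 genes (0%) in each of the 5 comparisons, and DESeq2 called 0 as well. At an unadjusted p under 0.05 there were 6, 7, 7, 5 and 7 of the 7 genes for tamoxifen in wild-type, tamoxifen in Esr1 cKO, interaction, genotype under oil and genotype under tamoxifen, beside 246, 278, 361, 367 and 177 of all genes. For genotype under tamoxifen, Ngp differed by 8.47 ± 1.56 and S100a9 by 6.12 ± 1.22 on the log2 scale, each with an adjusted p of 0.203 by edgeR. Counts of 0 in several libraries make these fitted values depend on the prior count.

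Whether the set passed in the microglia class hung on the libraries and the filter. The calls below are again for genes picked over these same cells, so they are a description and support nothing. Without the 2 libraries that stood apart, 2 of 7 genes were called for tamoxifen in wild-type mice, 5 for tamoxifen in Esr1 cKO mice, 7 for the interaction, 0 for genotype under oil and 7 for genotype under tamoxifen. Of all 6257 genes tested there, 5, 6, 13, 3 and 7 were called in that order (0.0799, 0.0959, 0.208, 0.0479 and 0.112%). Without Esr1 cKO tamoxifen replicate 4, the library of that group with almost none of these transcripts, the counts were 3 for tamoxifen in Esr1 cKO mice, 5 for the interaction and 5 for genotype under tamoxifen, beside 3, 5 and 6 of 5833 genes (0.0514, 0.0857 and 0.103%). Without wild-type oil replicate 3 the counts were 4 for the interaction and 4 for genotype under tamoxifen, and 0 for the others, beside 2, 0, 6, 2 and 4 of 6353 genes in the same order of comparisons (0.0315, 0, 0.0944, 0.0315 and 0.063%). With no filter on low counts the set gave 6, 7, 7, 6 and 7 calls, beside 13, 24, 27, 30 and 21 of 21577 genes (0.0602, 0.111, 0.125, 0.139 and 0.0973%). In cells under 5% mitochondrial UMIs, 6 of the 7 could be tested and gave 0, 0, 3, 0 and 4 calls, beside 1, 0, 3, 1 and 5 of 2568 genes (0.0389, 0, 0.117, 0.0389 and 0.195%). With the calprotectin barcodes left out, 0 of the 7 genes had enough UMIs to be tested, in the microglia class or in all kept cells. The UMIs through which the set could be tested in the class thus lay mostly in 14 of 5426 cells.

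Red blood cell transcripts also varied between libraries, and followed the 7 genes only in part. The list of 5 red blood cell genes measured 1096, 5172 and 1258 CPM in wild-type oil mice, 2990 to 6246 under wild-type tamoxifen, 1356 to 2803 under Esr1 cKO oil, and 4554, 8962, 5672 and 2369 in Esr1 cKO tamoxifen replicates 1 to 4. In 3 of the 4 groups the library highest for the 7 genes was also the highest for this list. In the Esr1 cKO oil group, replicate 2 was highest for the 7 genes and lowest for the list (1356). Wild-type tamoxifen replicates 4 and 5 measured 4696 and 5671 for the list, and 4.07 and 4.24 for the summed 7 genes, in kept cells. Esr1 cKO tamoxifen replicate 1 measured 4554 and 154.1. The 4 and 2 calprotectin barcodes of the 2 wild-type tamoxifen libraries were all left out as not kept. Over all deposited barcodes these libraries gave 128 and 53 UMIs of the 7 genes, and Esr1 cKO tamoxifen replicate 1 gave 500. For tamoxifen against oil in Esr1 cKO mice, 4 of 4 tested genes of the list were under an unadjusted p of 0.05 with a median log2 difference of 1.30, and 0 were called by edgeR. The brains are not stated to have been perfused, and the part of retained blood in the result was not tested.

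Genes of the same pathway outside the set gave no call either. Of 28 further neutrophil genes, 11 had enough UMIs in kept cells, and 0 were called in any comparison. Their median log2 difference was 0.37 for tamoxifen in Esr1 cKO mice beside -0.01 for all genes. The list gave 10478 UMIs in kept cells, of which 531 lay in kept calprotectin barcodes. Most of its counts thus came from other cells, and the median does not show how these genes behaved in the calprotectin barcodes. Of 9 receptor genes for the encoded proteins (among them Tlr4, Ager and the Lcn2 receptor gene Slc22a17), 7 were tested and 0 called, with a median of -0.15. Their summed level was 343.5 to 422.6 CPM in Esr1 cKO oil mice and 352.5 to 406.9 in Esr1 cKO tamoxifen mice. Of 10 neutrophil recruiting signals (Cxcl1, Cxcl2 and others), 8 were tested and 0 called, with a median of 0.51. Of these lists, 2, 0 and 2 genes were under an unadjusted p of 0.05 in that comparison. The 20 microglial identity genes were all tested, 0 were called, 5 were under an unadjusted p of 0.05 and their median was 0.28.

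Most Lcn2 lay outside the calprotectin barcodes, and the largest part of it in endothelial cells. Among 7135 kept cells of the endothelial class, 98 held Lcn2 (1.37%, exact 95% interval 1.12 to 1.67%, median depth 731 UMIs), with 279 UMIs in 11 libraries. In neurons 0.0438% (0.0119 to 0.112%) held it at a median depth of 1489 UMIs. A single library carried most of this. In Esr1 cKO tamoxifen replicate 2, 62 of 304 endothelial cells held Lcn2 (20.4%, 16.01 to 25.4%), with 226 UMIs, up to 32 in a cell and 618.4 CPM. The next highest library, wild-type tamoxifen replicate 3, measured 18.6 (1.11% of cells), and shares in the other 15 libraries ran from 0 to 1.11%. Of the 226 UMIs, the 10 highest cells held 53.5%.

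**Figure D5:**
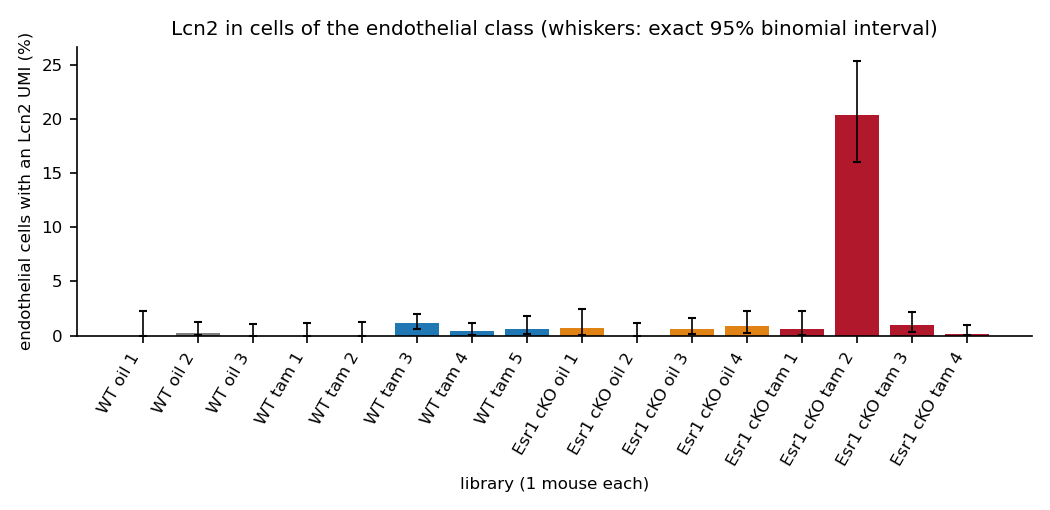
Bars give the share of endothelial-class cells with an Lcn2 UMI in each library, and whiskers the exact 95% binomial interval. Esr1 cKO tamoxifen replicate 2 stands at 20.4%, and the other 15 libraries lie between 0 and 1.11%.

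Several adhesion genes were high in the endothelial cells of the same mouse, and what set these cells apart was not tested. These genes were listed after Lcn2 was seen, and the values are a description of 1 library. Sele (E-selectin), which slows rolling leukocytes, measured 142.3 CPM against at most 7.54 in the other 15 libraries, and Selp (P-selectin) 54.7 against at most 8.95. Vcam1 measured 415.9 (others up to 164.4), Lrg1, an acute-phase glycoprotein gene, 208.0 (up to 30.1), and Vwf 473.4 (up to 234). The neutrophil chemokine gene Cxcl1 measured 73.9 (up to 30.2) and Icam1 68.4 (up to 55.9). Each of these 7 genes ranked 1st of 16, whereas the endothelial identity genes Cldn5 (7th), Flt1 (8th) and Pecam1 (3rd) and the cytokine feedback gene Socs3 (14th) did not. Of the other listed genes, the monocyte chemokine gene Ccl2 was 12th at 2.74 CPM (median of the other libraries 3.75), Serpina3n, an acute-phase gene of astrocytes, was 4th at 10.95 (up to 14.31), and Il6 had 0 UMIs.

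Within that library, most UMIs of Sele, Selp, Vcam1, Lrg1, Vwf, Cxcl1 and Icam1 came from the 62 endothelial cells with Lcn2. Of these cells, 43 held Vcam1, 35 Vwf, 23 Lrg1, 17 Sele, 12 Icam1, 10 Cxcl1 and 4 Selp. For Lrg1, Sele, Icam1, Cxcl1 and Selp, most of the 62 cells thus had no UMI. Counts were low, with 52 UMIs of Sele, 27 of Cxcl1, 25 of Icam1 and 20 of Selp in all endothelial cells of the library. The 62 cells with Lcn2 measured 366 CPM of Sele, and the 242 cells without it 25.0. Lrg1 measured 596.7 and 4.17, and Vcam1 914.9 and 154.3, whereas Flt1 measured 3445 and 4667 and Cxcl12 843.3 and 2098. Cldn5 measured 970.6 and 796.7, and Pecam1 731.9 and 583.9. Depth moved with this split, at a median of 1476 UMIs in the cells with Lcn2 and 715 in those without. The 62 cells held 8 UMIs of S100a8, S100a9, Ngp and Camp in all, so their Lcn2 was not accompanied by calprotectin at the ratio of the calprotectin barcodes. This is also the mouse with the most calprotectin barcodes, 8 of 39.

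Ltf outside the calprotectin barcodes was thinly spread, with 146 UMIs in 145 barcodes. Oligodendrocytes held it in 32 of 9231 kept cells (0.347%, exact 95% interval 0.237 to 0.489%) in 12 libraries, at 3.71 CPM. Astrocytes held it in 0.0515% and neurons in 0.186%, at median depths of 483 and 1489 UMIs against 753 in oligodendrocytes. Trf, which encodes transferrin, a paralog of lactoferrin, measured 2291 CPM in oligodendrocytes and 377.6 in the microglia class, the next highest. Reads shared between the paralogs are possible, and their part in the Ltf counts was not tested.

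The genes whose levels most resembled the summed 7 genes were looked up among 16617 genes with at least 100 UMIs, by Pearson r of log2 CPM over 16 libraries. Retnlg was the closest (r = 0.908), with 327 UMIs in the calprotectin barcodes. Slc38a5 (0.826), N4bp3 (0.815), Hdac5 (0.786), Card9 (0.743), C1s (0.731), Slc7a5 (0.721), Plk2 (0.708) and H2-Q10 (0.705) had 0 UMIs in those barcodes, and Lrg1 (0.752) had 31. All points share their library's depth, and a few high libraries set these values.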

How the data were processed

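Drop-seq libraries of the hypothalamus-POA from 16 mice were analysed from the matrices that the authors deposited, which hold raw UMI counts per gene and cell barcode (mm10; STAR 2.6 and Seurat 3.6.1 per the labels). In the study's methods 3.6.1 is the version of R under which Seurat was run. Genes absent from a library's gene list were taken as 0: Ngp in 3 libraries, 1100001G20Rik in 1, and Camp, Ltf and Lcn2 in 1. The 7 genes, all gene lists and the tests were chosen with earlier results of these data known.

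Cells were kept if their gene number was above 200 and below 4000 and their mitochondrial share was under 15%. Without the 7 genes, 2000 variable genes per group, 30 anchor dimensions and 20 principal components were used to cluster them in Seurat 5.3.0 at a resolution of 0.05, or 0.5. Clusters were named where at least 3 markers had a log2 fold above 1. Doublets were not called. UMIs were summed per mouse, which is the replicate, and tested with edgeR 4.0.16 (TMM, filterByExpr, quasi-likelihood, two-sided, Benjamini-Hochberg, threshold 0.05) in 1 fit of the 4 groups under R 4.3.3. The alternatives were DESeq2 1.42.0, other scaling, filters, cell selections and left-out libraries. The fit was first tested on simulated counts.

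The named genes are the 7, the list genes past a threshold or with the most UMIs, and the 10 most alike over libraries. Calprotectin barcodes, their leading genes and the adhesion genes were chosen after their values were seen. Levels are CPM. They count 3′ tags and are not scaled by gene length, so each gene is compared with itself. Replicates are numbered in the order of the libraries. Collection ran over several days with the groups in parallel, but the day of each library is not given. A test of granule-rich against other microglia-class cells was planned and not run, for want of a 3rd library with 3 such cells.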

Additional observations from a re-analysis of the deposited data

Results flagged for a closer look

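In 7 of 28 sets of 4 or 5 libraries of a group, 1 library lay far from the others by Dixon's criterion (95% level). Chance alone gives this in about 1 in 20 independent sets of normal values. These sets share barcodes and hold many values near 0, so the 2 rates cannot be compared. The wild-type oil group, with 3 libraries, was not examined. S100a8 in kept cells measured 17.6 CPM in wild-type tamoxifen replicate 3, against 0 to 0.249 in the other libraries of its group. S100a8 also measured 8.15 in Esr1 cKO oil replicate 2, against 0 to 0.778. S100a9 measured 4.58 in wild-type tamoxifen replicate 3, against 0.249 to 1.28. Ltf measured 23.1 in Esr1 cKO tamoxifen replicate 2, against 2.39 to 4.70.

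Lcn2 was far from its group in 3 sets. It measured 4.398 in kept cells of wild-type tamoxifen replicate 3 (0 to 0.998 in the others) and 142.7 in Esr1 cKO tamoxifen replicate 2 (0.266 to 6.06). In the endothelial class of the latter it measured 618.4 CPM, against 1.63 to 8.95 in the other 3 libraries of that group. Calprotectin barcodes numbered at most 8 per library.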

How the results depend on the processing

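No paired analysis was possible because the labels give no replicate numbers; a block of successive fours of library numbers changed no call. Of 840 values of single genes in all kept cells over the alternatives, 822 kept their direction and side of the threshold and 18 reversed. Values of single genes in the microglia class were not among them. Of 269 other values, 245 held. In all kept cells, 0 of the 7 genes was called under any alternative, beside 0 to 2 of all genes tested. All 7 could be tested except for 6 under 5% mitochondrial UMIs, 1 with more than 500 genes per cell and 0 without calprotectin barcodes. In the microglia class, without a filter on low counts, 6 of 7 were called for tamoxifen in wild-type mice, 7 for tamoxifen in Esr1 cKO mice, 7 for the interaction, 6 for genotype under oil and 7 for genotype under tamoxifen, beside 13 to 30 of 21577 genes. Without the 2 libraries that stood apart these counts were 2, 5, 7, 0 and 7, beside 5, 6, 13, 3 and 7 of 6257 genes. With cells under 5% mitochondrial UMIs the counts were 3 for the interaction and 4 for genotype under tamoxifen, beside 3 and 5 of 2568 genes. Leaving out 1 library at a time gave 0 to 3 calls for tamoxifen in Esr1 cKO mice, 0 to 5 for the interaction and 0 to 5 for genotype under tamoxifen. The highest counts came without Esr1 cKO tamoxifen replicate 4, beside 3, 5 and 6 of 5833 genes. The cause was not tested. Since the 7 were picked for their spread over the microglia class, their calls in that class are a description and support nothing.

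For Lcn2 in all kept cells, tamoxifen against oil in wild-type mice (log2) turned to -0.44 without the libraries that stood apart and to -0.17 under 5% mitochondrial UMIs, and genotype under oil to -0.59 and -0.13. S100a9 for genotype under oil turned to 0.20 over all deposited barcodes. With 1 library left out, tamoxifen against oil in wild-type mice ranged from -7.28 to 1.43 for S100a8, -3.91 to 0.76 for Ngp, -1.62 to 0.40 for Ltf and -1.21 to 2.67 for Lcn2. Genotype under oil ranged from -6.07 to 0.53 for S100a8, -4.64 to 0.07 for Ngp, -4.69 to 0.45 for Camp, -1.98 to 0.06 for Ltf and -0.57 to 2.58 for Lcn2.

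The share of granule-rich barcodes under wild-type tamoxifen moved from 0 to 0.00718% with at least 3 UMIs over 2 genes, to 0.00185% over all deposited barcodes, and by calprotectin UMIs to 0.00718% of kept cells and 0.0175% of all barcodes (the last 2 chosen after seeing the data). Under Esr1 cKO oil it moved from 0 to 0.0228%, 0.0136%, 0.0168% and 0.0210%. With more than 500 genes per cell, or at least 3 microglia marker UMIs, a selection that holds 0 calprotectin barcodes, 0 of the 7 genes could be fitted in the microglia class. The alternatives of the granule-rich test, doublet removal included, were not run.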
